A study of Mus musculus with 2 samples.

Results

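Transcripts of 10 immune checkpoint genes, among the 27998 genes counted, were followed through the cells of 2 single-cell libraries of mouse glioma. The members are 5 inhibitory receptors, Pdcd1 (PD-1), Ctla4, Lag3, Havcr2 (TIM-3) and Tigit, and 5 ligands, Cd274 (PD-L1), Pdcd1lg2 (PD-L2), Cd80, Cd86 and Lgals9 (galectin-9). They were chosen by name, with earlier results of these data known, and all 10 were found in both libraries. Both libraries came from Kunming mice carrying G422, a mouse glioma line described by its submitters as triple negative and grown as an orthotopic brain tumour. Untreated mice, taken 7 days after inoculation, gave the control library. The LTS (long-term survivor) library came from mice that outlived combined therapy, whose agents the labels do not name, by over 100 days and then received the same cells in the opposite hemisphere. The labels also speak of a second survival of over 100 days and of a harvest at day 7, and do not settle which inoculation that day counts from. Neither sex, age nor the number of animals pooled in a library is given in the sources used here.

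Checkpoint receptors are inhibitory proteins on the surface of lymphocytes that dampen activation when they meet their ligands on other cells. PD-1 is engaged by PD-L1 and PD-L2. CTLA-4 competes with the stimulatory receptor CD28 for CD80 and CD86. LAG-3 binds MHC class II, TIM-3 is reported to bind galectin-9 among other ligands, and TIGIT binds nectin family proteins such as the poliovirus receptor. Myeloid cells can carry LAG-3 and TIM-3 as well, and in brain tumours both microglia and blood-derived monocytes are sources of PD-L1.

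Cells were barcodes with at least 1000 UMIs (unique molecular identifiers, each standing for 1 captured transcript), at least 300 genes and at most 15% mitochondrially encoded UMIs. These filters left 8310 control and 4835 LTS cells, whose median depths were 14889.5 and 18779 UMIs. 13 barcode sequences occurred in both libraries. Classes were named from marker genes, as rebuilt here, and held 94 control and 479 LTS T cell-like, 774 and 638 microglia-like, 405 and 217 monocyte or macrophage-like, 143 and 74 endothelial cell-like and 5390 and 2509 G422 tumour-like cells. All 12 tumour markers had UMIs in the tumour-like class, but the class was named by that list, so their presence is no separate support. Its Y-linked transcripts were at 1.04 CPM (control) and 0.787 CPM (LTS), against 100.1 and 187 CPM in T cell-like cells. Low Y-linked transcripts and low Ptprc, a leukocyte gene, were conditions for naming a cluster tumour-like, so the low level follows from the naming. The labels give a glioma line, but the tumour-like clusters were led by genes such as Mgp, Col1a1, Postn and Hmga2. They are called tumour-like only by the tumour marker list and the conditions on Ptprc and Y-linked transcripts. Levels are given as CPM (counts per 1e+06), the UMIs of a gene relative to all UMIs of its class and library. The 3' chemistry counts 1 tag per molecule, so levels of different genes are not divided by length. With 1 library per group no test between conditions was possible, and every interval given (95%, exact) covers counting error alone and says nothing of the spread between mice or preparations.

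Pdcd1 (ENSMUSG00000026285, chromosome 1, 94038305 to 94052553 in mm10) encodes PD-1, the receptor of activated and exhausted T cells. In T cell-like cells it was at 77.5 CPM in LTS (65.2 to 91.4, 141 UMIs in 84 cells) and 65.6 CPM in control (39.5 to 102, 19 UMIs in 15 cells). The intervals of the libraries overlapped, and the ratio of LTS over control was 1.18 (0.730 to 2.02). Lag3 (ENSMUSG00000030124, chromosome 6, 124904361 to 124911705), a CD4-like receptor of MHC class II, was at 54.4 CPM (44.2 to 66.2, 99 UMIs) and 51.8 CPM (29.0 to 85.4, 15 UMIs), a ratio of 1.05 (0.608 to 1.95). Both intervals reach from below 1 to about 2, so neither a difference nor its absence was detectable at this depth.

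Ctla4 (ENSMUSG00000026011, chromosome 1, 60887000 to 60915832), the receptor that regulatory T cells carry most, was lower in LTS T cell-like cells. It was at 61.0 CPM in LTS (50.2 to 73.5, 111 UMIs) and 96.6 CPM in control (64.2 to 140, 28 UMIs), 1.58-fold lower (1.01 to 2.41), and the CPM intervals overlapped. The interval of the ratio no longer left out 1 in cells of at least 2000 UMIs, in cells of at least 5000 UMIs, without the cell richest in Ctla4, without Scrublet doublets, or among cells holding Cd3 but no C1q transcripts. Havcr2 (ENSMUSG00000020399, chromosome 11, 46454935 to 46481255), the gene of TIM-3 on terminally differentiated T cells and on myeloid cells, differed most. It was at 39.0 CPM in LTS (30.5 to 49.2, 71 UMIs in 57 cells) and 6.90 CPM in control (0.836 to 24.9, 2 UMIs in 2 cells). The CPM intervals did not overlap, and the ratio was 5.65 (1.51 to 47.6), with only 2 control UMIs behind it. The interval included 1 when the class was limited to cells of at least 5000 UMIs, or to those with Cd3 and without C1q transcripts, where 1 control UMI was left. Tigit (ENSMUSG00000071552, chromosome 16, 43648867 to 43664146) was close to the limit of detection, with 6 LTS UMIs and 1 control UMI (3.30 and 3.45 CPM).

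7 members reached 20 CPM in one of the libraries, and of these 1 was at least 1.5-fold higher in LTS (Havcr2) and 2 were at least 1.5-fold lower (Ctla4 and Cd86). Of all 7062 genes at that level, 11.8% were at least 1.5-fold higher and 24.6% lower, so the counts of members lie near the background of this small class. The median log2 ratio was -0.11 over the 7 members and -0.18 over all genes tested. Cd86 was at 11.0 CPM in LTS (20 UMIs) and 24.2 CPM in control (7 UMIs). Its ratio of 0.455 had an interval (0.185 to 1.27) that includes 1. Cd274 was at 25.3 and 27.6 CPM and Lgals9 at 87.9 and 100.1 CPM in LTS and control, and both ratio intervals included 1. The libraries' T cell-like cells also differed in what else they held. The 12 tumour markers summed to 1542 CPM in control and 463 CPM in LTS, the 12 T cell markers found to 2481 and 5612 CPM, the 10 natural killer markers to 2774 and 4137 CPM, and the 12 microglia markers to 383 and 282 CPM. From 8 tumour genes, RNA of the kind found in barcodes of 1 to 100 UMIs was estimated at 54.0% (control) and 20.7% (LTS) of the UMIs of these cells. With that share taken off, the log2 ratios were -0.54 for Pdcd1, -1.44 for Ctla4, -0.65 for Lag3 and 2.60 for Havcr2, against 0.24, -0.66, 0.07 and 2.499 without it. The signs of Pdcd1 and Lag3 thus depended on this step, while those of Ctla4 and Havcr2 did not.

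Shares of cells with a receptor UMI were small and differed with depth. After thinning each cell to 1000 UMIs, Pdcd1 was found in 6.89% of LTS (4.79 to 9.54) and 6.38% of control T cell-like cells (2.38 to 13.4). Ctla4 was found in 5.43% (3.58 to 7.85) and 5.32% (1.75 to 11.98). Lag3 was found in 3.55% of LTS cells (2.08 to 5.62) and in 0 of 94 control cells (exact upper limit 3.85%). Havcr2 was found in 2.92% of LTS cells (1.61 to 4.86) and in 0 of 94 control cells (exact upper limit 3.85%). Without thinning, at medians of 3235 and 2073 UMIs, the shares were 17.5% and 15.96% for Pdcd1, 14.2% and 17.0% for Ctla4, 15.03% and 11.7% for Lag3 and 11.9% and 2.13% for Havcr2. All 4 intervals overlapped between the libraries after thinning. Thinned to 2000 UMIs, which left 417 LTS and 49 control cells, the shares of Pdcd1 were 9.35% (6.74 to 12.6) and 18.4% (8.76 to 32.0) and those of Ctla4 10.55% (7.77 to 13.9) and 16.3% (7.32 to 29.7), so the direction of both turned, with overlapping intervals. In tumour-like cells, which should lack these receptors, the thinned shares were 0 for Pdcd1 and Ctla4, 0.199% (LTS) and 0.260% (control) for Lag3 and 0.0797% and 0.130% for Havcr2, at unthinned medians of 36906 and 17568 UMIs.

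T cell-like cells were then divided by their co-receptor transcripts. Cells with Cd8a or Cd8b1, the chains of the cytotoxic co-receptor, numbered 266 in LTS and 20 in control. Cells with Cd4, the helper co-receptor, numbered 96 and 18, and cells with a Cd3 chain and neither co-receptor 104 and 40. The makeup of the class therefore differed between the libraries, and whole-class ratios mix that with levels inside each subset.

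In the Cd8 cells of LTS, Pdcd1 was at 77.7 CPM (61.1 to 97.4), Lag3 at 69.4 CPM (53.8 to 88.2), Havcr2 at 54.9 CPM (41.1 to 71.8), Ctla4 at 36.3 CPM (25.3 to 50.4) and Tigit at 4.14 CPM (1.13 to 10.6). The upper end for Ctla4 lay below the lower ends for Pdcd1 and Lag3. The 20 control Cd8 cells gave 2 Pdcd1 UMIs, 7 Lag3 UMIs and none of Havcr2, Ctla4 or Tigit. Havcr2 in these cells was at least 1.21-fold higher in LTS by the exact interval of the ratio, and 1.54-fold higher against a floor of 3 counts in the control sum. Of the 20 control Cd8 cells, the 4 with Lag3 had a median of 9619.5 UMIs and the other 16 one of 1819. A few deep cells thus weigh heavily in the control sum, and in the bound drawn from it.

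In the Cd4 cells of LTS the order was another one. Ctla4 stood at 114 CPM (85.3 to 149) and Pdcd1 at 107 CPM (79.7 to 142), above Lag3 at 36.5 CPM (21.3 to 58.5) and Havcr2 at 21.5 CPM (10.3 to 39.5). Within the LTS library the Ctla4 interval of Cd4 cells did not overlap that of Cd8 cells, and neither did the Havcr2 interval, which was higher in Cd8 cells. 1 cell held 38.0% of the Pdcd1 UMIs of the Cd4 cells. Cells with a UMI of Foxp3, which defines regulatory T cells, were 11 in LTS and 7 in control. They held Ctla4 at 511 CPM (324 to 766, 23 UMIs) and 220 CPM (100.4 to 417, 9 UMIs), the highest receptor level of any subset described here. In these few cells Ctla4 was 2.33-fold higher in LTS (1.04 to 5.71), whereas it was lower in LTS in T cell-like cells as a whole. The difference in direction was not tested. In LTS Cd4 cells without a Foxp3 UMI, Ctla4 was at 80.1 CPM (55.8 to 111).

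In cells with Cd3 and no co-receptor transcript, Pdcd1 and Ctla4 were lower in LTS. Pdcd1 was at 43.7 CPM in LTS (24.5 to 72.1, 15 UMIs) and 146 CPM in control (77.9 to 250.3, 13 UMIs in 12 cells), 3.35-fold lower (1.47 to 7.54). Ctla4 was at 67.1 and 158 CPM, 2.35-fold lower (1.12 to 4.77). Havcr2 was at 23.3 and 11.3 CPM (8 UMIs and 1 UMI), with a ratio of 2.07 whose interval (0.278 to 91.9) includes 1. In the Cd8 cells the interval of the Pdcd1 ratio (3.28, 0.876 to 27.6) also includes 1, and the difference between subsets was not tested. At medians of 2785.5 and 1993 UMIs, a cell can fall in this subset because its co-receptor was missed, and the subset is no cell type.

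**Figure D1:**
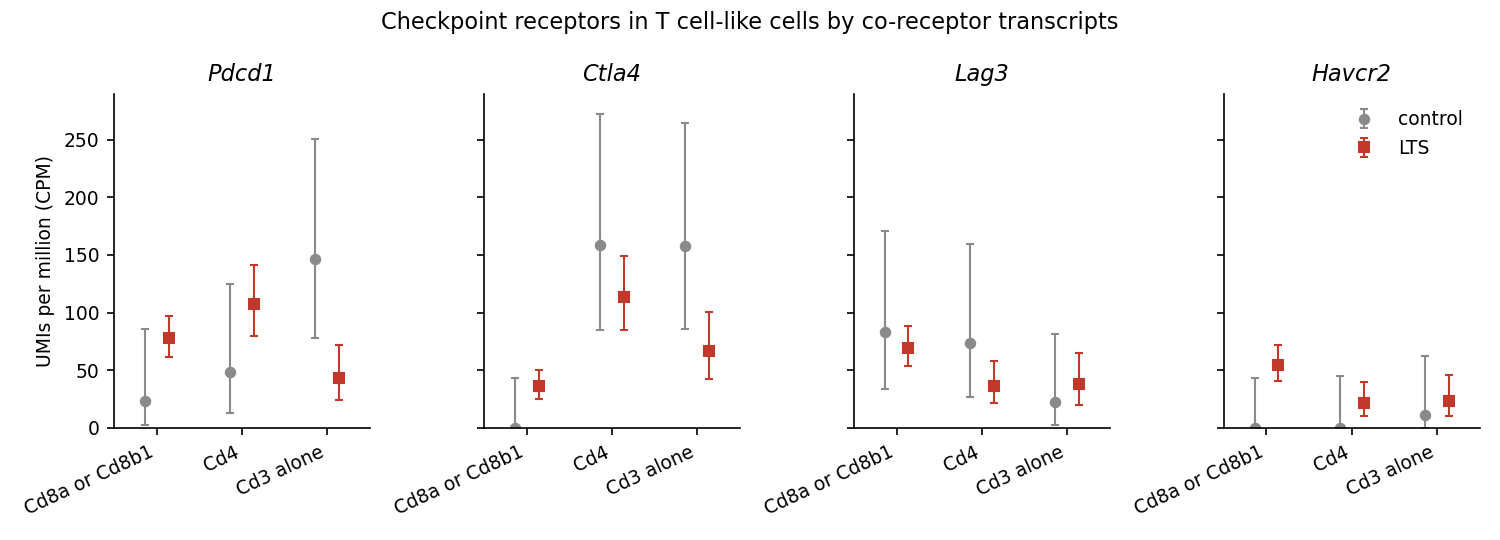
Levels of 4 checkpoint receptors (CPM, linear axis) in T cell-like cells with Cd8a or Cd8b1, with Cd4, or with Cd3 alone; points are the summed level of 1 library and bars are exact Poisson 95% intervals. Havcr2 in LTS is highest in the Cd8 cells (54.9 CPM), and Ctla4 in LTS is higher in the Cd4 cells (114 CPM) than in the Cd8 cells (36.3 CPM).

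Receptors were found together in few cells. UMIs of 2 or more of the 5 receptors occurred in 63 of 479 LTS T cell-like cells (13.2%, 10.3 to 16.5) and in 11 of 94 control cells (11.7%, 5.99 to 19.97). No cell held all 5, and 3 LTS cells held 4. Among LTS cells with Ctla4, 30.9% also had Lag3 (20.2 to 43.3), against 12.4% of cells without Ctla4 (9.38 to 15.99), at medians of 3752.5 and 3211 UMIs. Among LTS cells with Havcr2, 29.8% had Pdcd1 (18.4 to 43.4), against 15.9% of cells without it (12.52 to 19.7), at medians of 3800 and 3122.5 UMIs. Havcr2 and Ctla4 did not share cells in this way, since Ctla4 was found in 14.04% of cells with Havcr2 (6.26 to 25.8) and in 14.2% of those without (11.0 to 17.9). Deeper cells show more genes, and the part of depth in these shares was not tested.

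Most Lag3 and Havcr2 transcripts lay outside T cells. Microglia-like cells (microglia are macrophages resident in the brain) held 64.4% of all Lag3 UMIs in LTS and 57.4% in control, while T cell-like cells held 9.2% and 1.99%. For Havcr2 the microglia-like shares were 58.8% and 55.1%. T cell-like cells held 88.1% of Ctla4 UMIs in LTS and 70.0% in control. They held 64.1% of Pdcd1 UMIs in LTS but 30.6% in control, where microglia-like cells held 46.8% (29 of 62 UMIs). Such shares depend on class size as well as level, and T cell-like cells were 9.91% of LTS and 1.13% of control cells. In control the Pdcd1 level was higher in T cell-like (65.6 CPM) than in microglia-like cells (6.20 CPM).

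Microglia-like cells of LTS carried more Lag3 and Havcr2 than those of control. Lag3 was at 129 CPM in LTS (119 to 139, 694 UMIs) and 92.6 CPM in control (84.1 to 102, 433 UMIs), 1.39-fold higher (1.23 to 1.57). Havcr2 was at 100.6 CPM (92.3 to 109) and 81.5 CPM (73.5 to 90.1), 1.23-fold higher (1.08 to 1.41). Pdcd1 was low, at 9.09 and 6.20 CPM, with a ratio of 1.47 (0.908 to 2.41). None of the 5 members with at least 20 CPM in this class was 1.5-fold higher or lower, against 1.26% of 6438 genes higher and 2.73% lower. Of a list of genes induced by tissue handling, 3 of 12 measured members were at least 1.5-fold higher in the same LTS cells and none lower, with a median log2 ratio of 0.38, and their part in these ratios was not tested.

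The difference in Lag3 followed 1 cluster. Cluster 14, led by P2ry12, Btg2 and Selplg, held 225 of the LTS microglia-like cells and 7 of the control ones. Cluster 4, led by Ccl12 and C1q genes, held 413 and 767. In cluster 14 of LTS, Lag3 was at 361 CPM (318 to 408) and Havcr2 at 181 CPM (151 to 215). In cluster 4 they were at 93.8 CPM (85.2 to 103) and 88.4 CPM (80.1 to 97.4) in LTS, and at 92.7 CPM (84.2 to 102) and 80.9 CPM (73.0 to 89.5) in control. Within cluster 4 the ratios were 1.01 for Lag3 (0.883 to 1.16) and 1.09 for Havcr2 (0.948 to 1.26), so neither interval left out 1. After thinning, 27.6% of cluster 14 cells of LTS had a Lag3 UMI (21.8 to 33.9), against 10.4% (7.64 to 13.8) of cluster 4 cells of the same library. Cluster 14 cells had a median of 2973 UMIs and cluster 4 cells of LTS one of 10847. Checkpoint genes were left out of the clustering, but a cluster found almost only in 1 library cannot be told apart from a feature of that library.

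**Figure D2:**
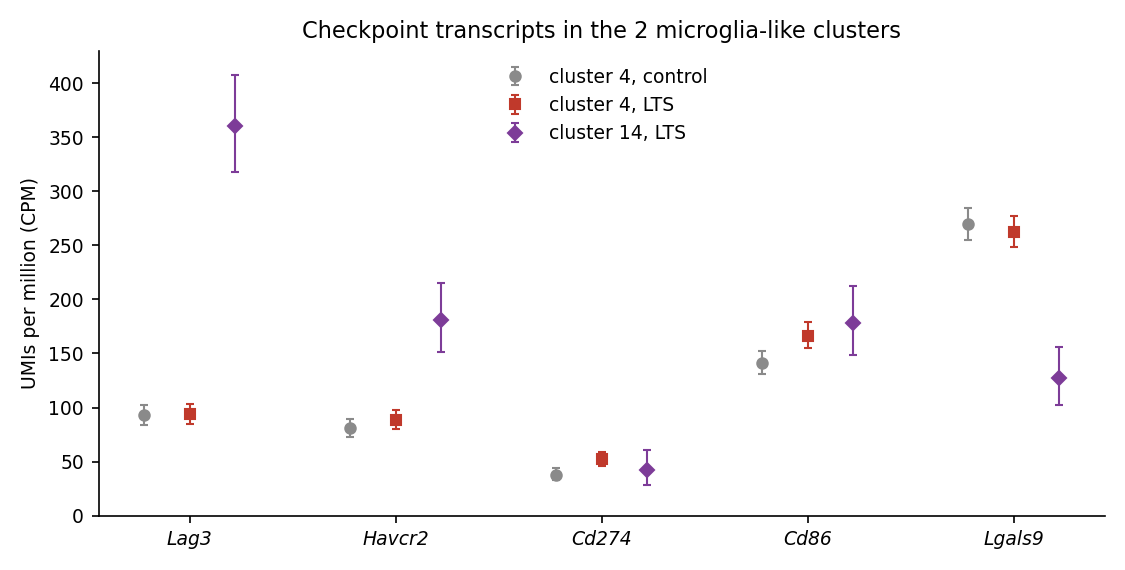
Levels of 5 checkpoint genes (CPM, linear axis) in microglia-like cluster 4 of control and LTS and in cluster 14 of LTS, with exact Poisson 95% intervals; the 7 control cells of cluster 14 are left out. Lag3 reaches 361 CPM in cluster 14 and 92.7 and 93.8 CPM in cluster 4, while Lgals9 is lower in cluster 14 (127 CPM) than in cluster 4 of LTS (263 CPM).

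Other myeloid classes also held these receptors. In monocyte or macrophage-like cells, whose origin was not tested, Havcr2 was at 104.5 CPM in LTS (88.0 to 123) and 79.2 CPM in control (65.0 to 95.5). It was 1.32-fold higher (1.02 to 1.71), an interval that included 1 in cells of at least 2000 UMIs. Lag3 was at 16.2 and 10.2 CPM there. In plasmacytoid dendritic cell-like cells, known for type I interferon, Lag3 was at 173 CPM in LTS (98.8 to 281, 16 UMIs in 13 cells) and 79.5 CPM in control (25.8 to 185, 5 UMIs in 19 cells), with a ratio of 2.18 whose interval (0.761 to 7.59) includes 1. In LTS the 2 highest Lag3 levels, those of plasmacytoid dendritic cell-like and microglia-like cells, had overlapping intervals, and the T cell-like level lay below the microglia-like interval. The highest LTS levels of Havcr2 were those of monocyte or macrophage-like and microglia-like cells, with overlapping intervals, and the T cell-like interval lay below both.

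**Figure D3:**
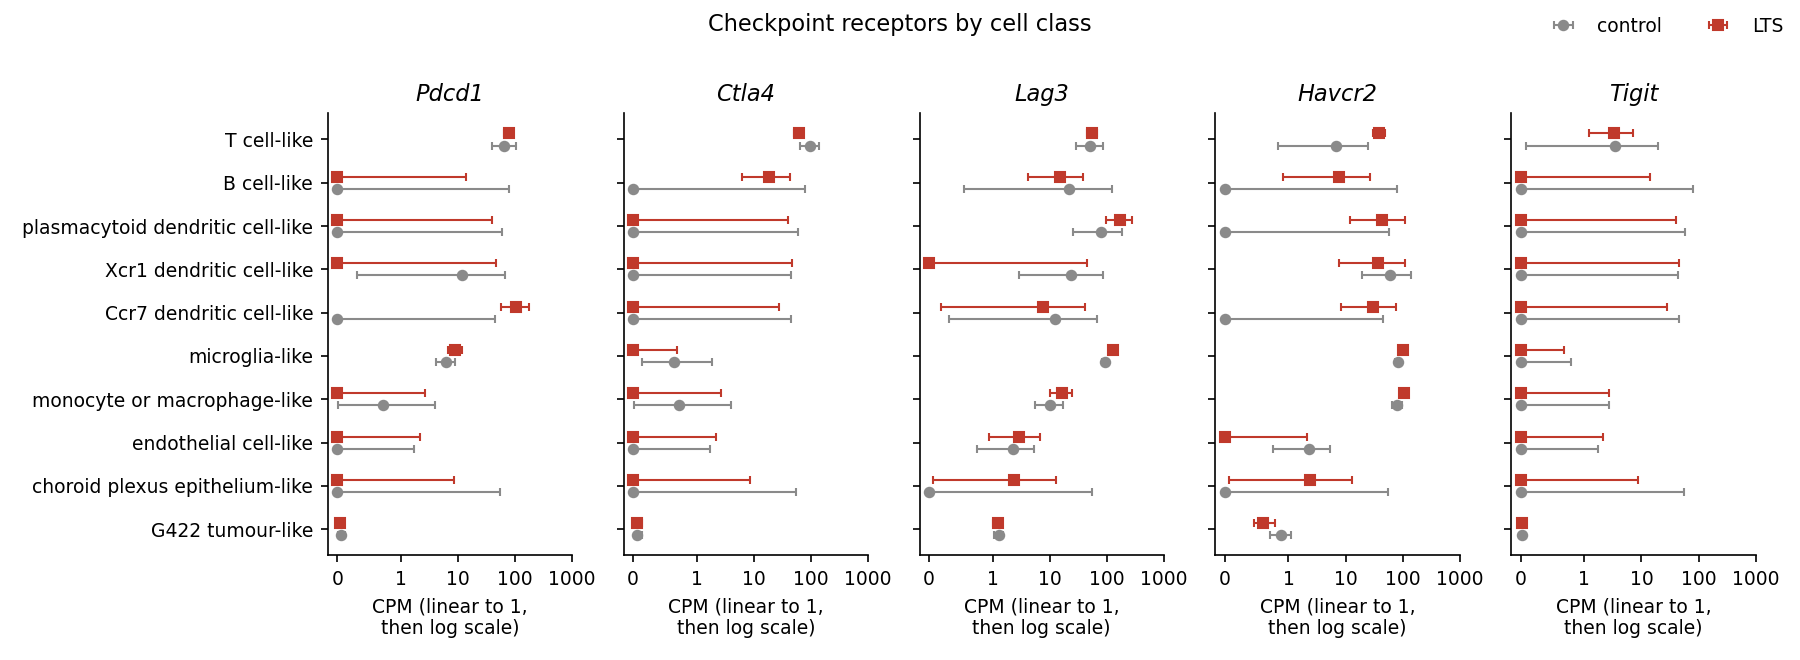
Levels of the 5 receptors (CPM, axis linear to 1 and then logarithmic) in 10 cell classes of control and LTS, with exact Poisson 95% intervals. Ctla4 is highest in T cell-like cells of both libraries (96.6 and 61.0 CPM), whereas Lag3 in microglia-like cells (92.6 and 129 CPM) and Havcr2 in microglia-like and monocyte or macrophage-like cells exceed the T cell-like levels of LTS.

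Among ligands, Cd274 (ENSMUSG00000016496, chromosome 19, 29367455 to 29388095), the gene of PD-L1, was highest in a small class of dendritic cells led by Ccr7, Ccl22 and Ramp3, the migratory state that carries antigen to lymph nodes. In these Ccr7 dendritic cell-like cells it was at 369 CPM in LTS (273 to 488, 49 UMIs in 17 of 19 cells) and 159 CPM in control (84.6 to 272, 13 UMIs in 6 of 18 cells). The intervals did not overlap, and the ratio was 2.32 (1.24 to 4.67). Free RNA was estimated at 51.2% of the UMIs of these cells in LTS and 63.3% in control, and with it taken off the log2 ratio of Cd274 was 0.84, against 1.22 without that step. The medians of these cells were 6055 and 2491.5 UMIs, so the counts of cells with a UMI compare unequal depths. Next came monocyte or macrophage-like cells, at 97.2 CPM (81.3 to 115, 132 UMIs) and 69.0 CPM (55.8 to 84.4, 95 UMIs), 1.41-fold higher (1.07 to 1.85). Microglia-like cells followed at 50.8 CPM (45.0 to 57.2, 274 UMIs) and 37.9 CPM (32.5 to 43.9, 177 UMIs), 1.34-fold higher (1.11 to 1.63). In both libraries each of these 3 levels was separated from the next by non-overlapping intervals. Within microglia-like cluster 4 alone Cd274 was 1.37-fold higher in LTS (1.13 to 1.67), while the thinned shares of cells with a UMI there were 3.63% and 3.65%.

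Pdcd1lg2 (ENSMUSG00000016498, chromosome 19, 29410919 to 29471161), the gene of PD-L2, lies 22823 bp beyond Cd274 on the same strand and was far less abundant. In Ccr7 dendritic cell-like cells it was at 67.8 CPM in LTS (9 UMIs) and 48.9 CPM in control (4 UMIs), with a ratio of 1.39 (0.387 to 6.17). In monocyte or macrophage-like cells it was at 16.2 CPM in LTS (10.1 to 24.5, 22 UMIs) and 5.08 CPM in control (2.04 to 10.5, 7 UMIs), 3.18-fold higher (1.31 to 8.83), an interval that included 1 in cells of at least 5000 UMIs. In microglia-like cells it was near 0 in both, at 1.11 and 1.07 CPM, where the neighbouring Cd274 stood at 50.8 and 37.9 CPM.

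Cd86 (ENSMUSG00000022901, chromosome 16, 36603869 to 36666081), a ligand of both CD28 and CTLA-4, was carried by all antigen-presenting classes. It was at 241 (LTS) and 183 CPM (control) in Ccr7 dendritic cell-like cells (ratio 1.32, 0.692 to 2.61). In microglia-like cells it was at 168 CPM (157 to 179) and 141 CPM (131 to 153), 1.19-fold higher (1.07 to 1.32). In monocyte or macrophage-like cells it was at 162 and 141 CPM, with a ratio of 1.15 whose interval (0.943 to 1.40) includes 1. B cell-like cells held it at 109 CPM in LTS (73.1 to 157, 29 UMIs) and 86.9 CPM in control (4 UMIs). Cd80 (ENSMUSG00000075122, chromosome 16, 38455561 to 38496335), the other CTLA-4 ligand, gave 24 UMIs in all LTS cells and 11 in all control cells. 4 of the LTS UMIs lay in 4 Ccr7 dendritic cell-like cells (30.1 CPM, 8.21 to 77.1), where control had 0 UMIs (3 UMIs would be 36.6 CPM), and no difference in Cd80 was detectable at this depth.

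Lgals9 (ENSMUSG00000001123, chromosome 11, 78962974 to 78984946), the gene of galectin-9, had the highest level of any ligand in microglia-like and endothelial cell-like cells. Microglia-like cells held it at 245 CPM in LTS (232 to 258) and 268 CPM in control (254 to 284), 1.10-fold lower (1.01 to 1.19), and in cluster 4 alone the ratio of 0.974 (0.90 to 1.06) did not leave out 1. Endothelial cell-like cells, which line blood vessels, held it at 223 CPM (201 to 247) and 217 CPM (198 to 238), with a ratio of 1.03 (0.894 to 1.18). The other ligands were low in endothelial cell-like cells, with Cd274 at 6.97 and 4.18 CPM, Cd86 at 1.16 and 1.39 CPM and no UMI of Pdcd1lg2 or Cd80. Monocyte or macrophage-like cells held Lgals9 at 173 and 175 CPM, with a ratio of 0.988 (0.822 to 1.19). Ccr7 dendritic cell-like cells, which led in Cd274, had 1 Lgals9 UMI in LTS and 4 in control (7.53 and 48.9 CPM). The class highest in PD-L1 transcripts thus had a Lgals9 interval below those of microglia-like, monocyte or macrophage-like and endothelial cell-like cells in both libraries.

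**Figure D4:**
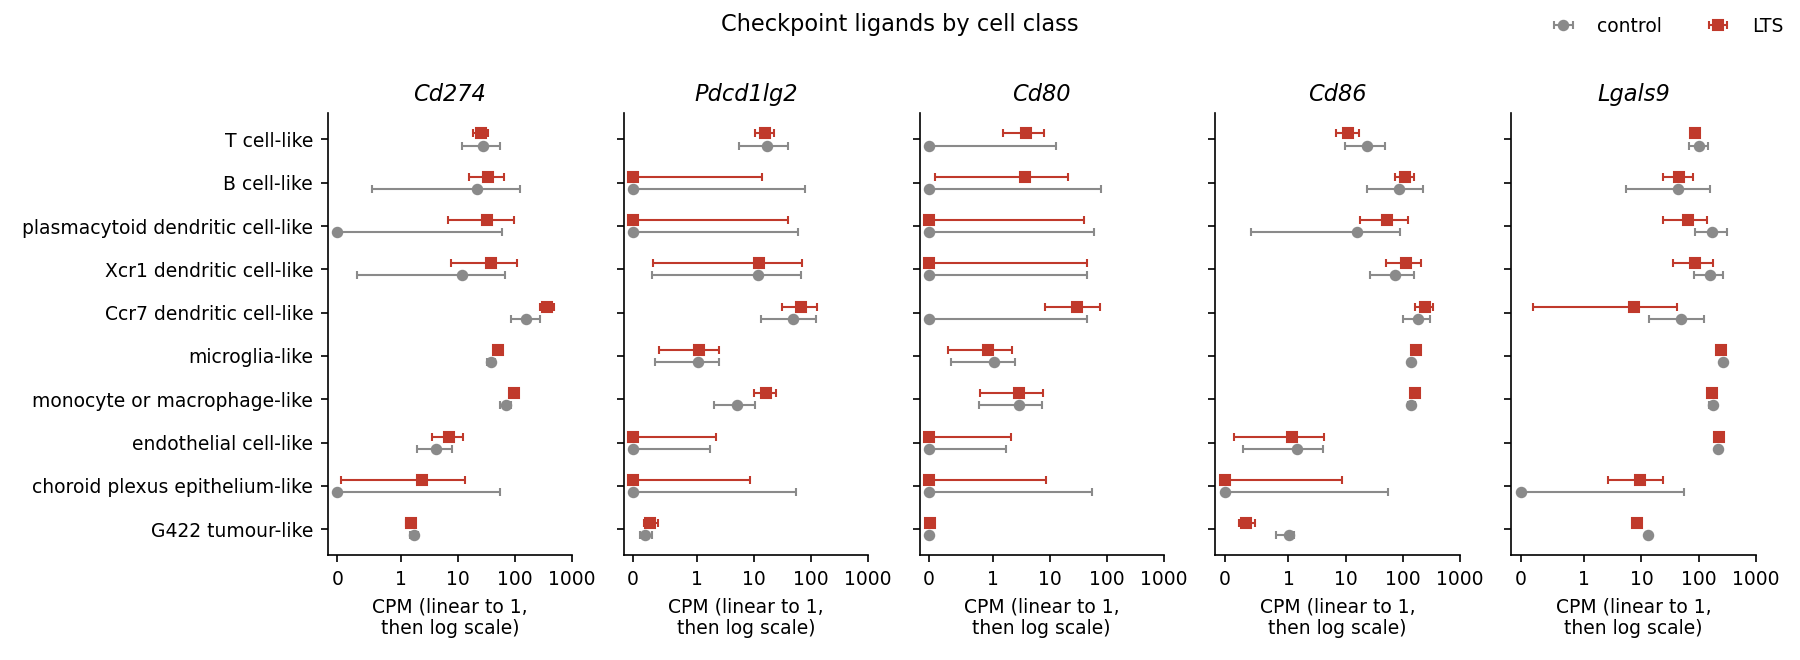
Levels of the 5 ligands (CPM, axis linear to 1 and then logarithmic) in 10 cell classes of control and LTS, with exact Poisson 95% intervals. Cd274 peaks in Ccr7 dendritic cell-like cells (159 and 369 CPM) and is lowest among the classes with a count in both libraries in G422 tumour-like cells (1.71 and 1.49 CPM), while Lgals9 in endothelial cell-like cells (217 and 223 CPM) is near its level in microglia-like cells.

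Of the 4 members with at least 20 CPM in monocyte or macrophage-like cells, none was 1.5-fold higher or lower in LTS, against 2.55% of 6264 genes higher and 9.4% lower. Pdcd1lg2 stayed under that level. In endothelial cell-like cells the 1 member at that level, Lgals9, was on neither side, against 2.41% of 6834 genes higher and 3.26% lower. In microglia-like and monocyte or macrophage-like cells the 12 tumour markers summed to 726 and 900.02 CPM in control and to 283 and 241 CPM in LTS. Low-UMI barcodes held Cd274 at 10.6 CPM in control and 14.2 CPM in LTS, Cd86 at 13.9 and 16.2 CPM and Lgals9 at 37.4 and 37.2 CPM. With free RNA taken off, the log2 ratio of Cd274 was 0.25 in microglia-like and 0.16 in monocyte or macrophage-like cells, against 0.43 and 0.49 without that step.

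G422 tumour-like cells held few transcripts of any member. Cd274 was at 1.49 CPM in LTS (1.24 to 1.76, 134 UMIs in 2509 cells) and 1.71 CPM in control (1.45 to 1.99, 160 UMIs in 5390 cells), with a ratio of 0.871 (0.687 to 1.10). Lgals9 was at 8.41 CPM (7.83 to 9.03) and 13.04 CPM (12.3 to 13.8), 1.55-fold lower in LTS (1.41 to 1.70). Cd86 was at 0.3326 and 1.00 CPM, 3.01-fold lower (1.98 to 4.71), and Havcr2 at 0.599 and 0.885 CPM, 1.48-fold lower (1.04 to 2.12), the last interval including 1 in cells of at least 2000 or 5000 UMIs, at a mitochondrial limit of 8% and without cluster 3. No member reached 20 CPM in this class, so none could be counted against the 0.0157% of 6376 genes higher and 0.471% lower. From 5 immune genes, free RNA was estimated at 8.14% of control and 2.69% of LTS tumour-like UMIs. Low-UMI barcodes held Cd274, Lgals9, Cd86 and Havcr2 at higher levels than tumour-like cells did. With free RNA taken off, the log2 ratio of Cd274 changed sign, as given in the closing section. For Cd86 the free RNA so estimated was at least as large as the whole measured level in both libraries, so that no ratio was left. For Havcr2 the log2 ratio was -0.27 with free RNA taken off and -0.56 without that step.

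Among the clusters that carry tumour markers, PD-L1 and galectin-9 transcripts were highest in cluster 12, which was not named as tumour. Clusters 10 and 12 carried 11 and 12 of the 12 tumour markers and Y-linked transcripts at 1.09 and 1.22 CPM, but were left unnamed because the fibroblast gene Dcn was among their leading genes. Low Ptprc and Y-linked transcripts were conditions for scoring both of them for tumour markers. In cluster 12, Cd274 was at 13.9 CPM in control (11.4 to 16.8) and 11.2 CPM in LTS (8.87 to 13.9). In cluster 10 it was at 5.33 and 5.11 CPM. The 8 tumour-like clusters ran from 1.05 to 4.08 CPM in control and from 0.916 to 5.77 CPM in LTS, and the upper value of each range came from cluster 3, with 6 and 5 UMIs and few UMIs per cell. Lgals9 had the same 2 clusters on top, with 71.9 and 73.1 CPM in cluster 12 and 43.0 and 36.4 CPM in cluster 10, against 8.83 to 25.2 CPM in control and 4.34 to 15.01 CPM in LTS in the tumour-like clusters. Over the 10 clusters, Pearson's r of log2(CPM + 1) between Cd274 and Lgals9 was 0.97 in control and 0.87 in LTS, as a description of clusters that share libraries. Lgals9 was lower in LTS in all 8 tumour-like clusters, which share the same libraries and are no replicates. Its intervals in LTS and control overlapped in clusters 1, 3 and 18 among these, and in clusters 10 and 12.

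**Figure D5:**
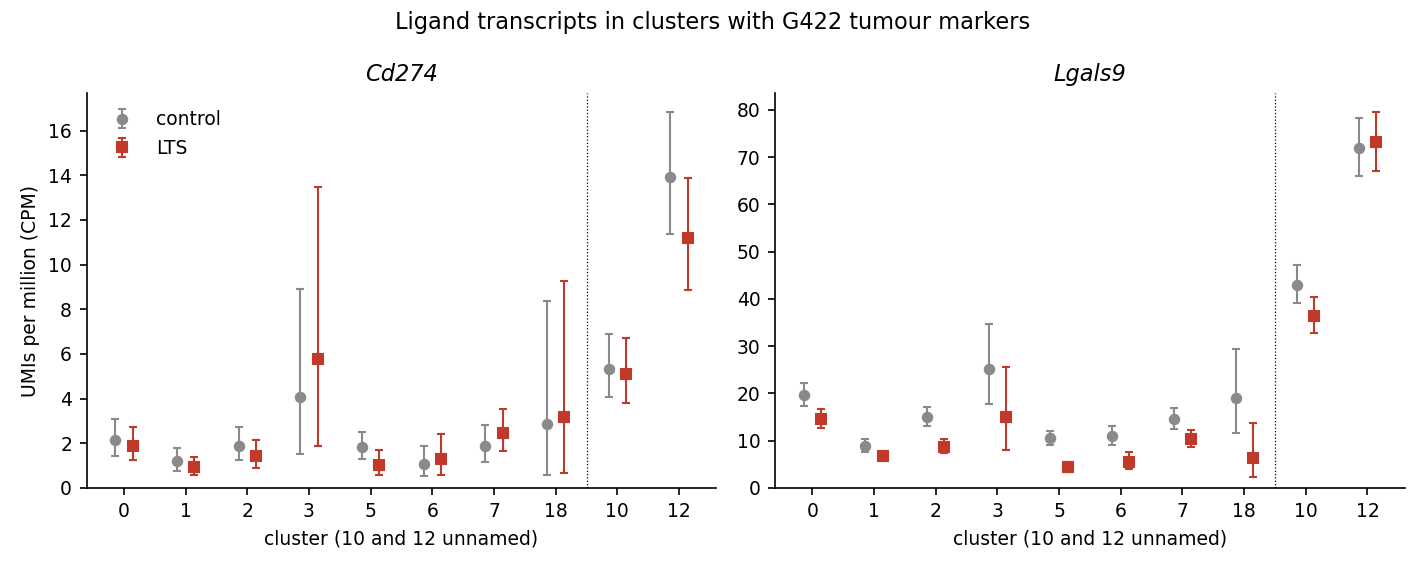
Levels of Cd274 and Lgals9 (CPM, linear axes) in the 8 tumour-like clusters and, right of the dotted line, in the unnamed clusters 10 and 12 that carry tumour markers, with exact Poisson 95% intervals. Both genes are highest in cluster 12, at 13.9 and 11.2 CPM for Cd274 and 71.9 and 73.1 CPM for Lgals9 in control and LTS.

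Some genes of the interferon gamma path, through which IRF1 induces PD-L1, were also higher in cluster 12 than in any tumour-like cluster of the same library. Irf1 was at 78.2 CPM in control and 76.4 CPM in LTS there, against at most 40.3 and 37.7 CPM in the tumour-like clusters, while cluster 10 was at 40.4 and 36.3 CPM. Cxcl10, an interferon-induced chemokine, was at 287 and 261 CPM, against at most 40.2 and 11.5 CPM. Others of the path did not stand apart in both libraries. The receptor chain Ifngr1 was at 33.1 and 30.7 CPM against at most 32.1 and 31.5 CPM, the kinase Jak2 at 12.3 and 14.1 CPM against at most 13.2 and 12.46 CPM, and Cxcl9 at 11.5 and 9.10 CPM against at most 20.04 and 3.46 CPM. Cd47, the ligand of SIRP alpha, was at 257 and 240 CPM, against at most 127 CPM in either library. Cd276 (B7-H3), at 33.9 and 37.4 CPM, was within or close to the range of the tumour-like clusters, 21.8 to 36.0 CPM in control and 25.4 to 35.0 CPM in LTS. Genes of this path were left out of the clustering, but other interferon-induced genes were not, and no test was made of these differences.

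The promoters of Cd274 and Lgals9 are shown because their transcripts were highest in the same cluster, beside those of Irf1. Promoters of 8 of the 10 members were matched in RefSeq (GRCm38.p6). The 250 bases before each start were searched on both strands for GAAANNGAA, a core shared by elements bound by interferon regulatory factors. GAAANNGAA occurs in 7.13% of 32851 promoters, and 3 members had it, Cd274, Lgals9 and Ctla4. Below are 100 bases of each promoter on the gene's strand, with the match in capitals (in Lgals9 with 1 adjoining base before it). The match lies on the opposite strand, so it reads as the reverse complement, and begins 76 bases before the start in Cd274 and 54 bases before it in Lgals9. The windows are chr19:29367313-29367412 (plus strand) and chr11:78984950-78985049 (minus strand), and a match is not a shown binding site.
Cd274: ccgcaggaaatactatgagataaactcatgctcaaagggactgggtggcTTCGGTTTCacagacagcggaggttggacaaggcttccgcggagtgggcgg
Lgals9: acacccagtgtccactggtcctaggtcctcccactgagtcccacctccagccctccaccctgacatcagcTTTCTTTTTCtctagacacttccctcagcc

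Other genes of the pathway were taken from lists. The counts for T cell-like cells below stand against the 11.8% of all genes higher and 24.6% lower given above, and with so few genes a list none of them is read as a result about its list. Among co-stimulatory receptors in T cell-like cells, 2 of 7 measured members were at least 1.5-fold higher in LTS and 3 lower. Cd226, the activating rival of TIGIT, was at 142 and 55.2 CPM, 2.57-fold higher (1.55 to 4.56). Tnfrsf4 (OX40) and Tnfrsf9 (4-1BB), receptors induced by activation, were 3.33-fold (2.40 to 4.56) and 2.31-fold lower (1.49 to 3.50). Of 7 other inhibitory receptors measured, 2 were higher and 3 lower. Cd96, a receptor that shares ligands with TIGIT, was at 87.9 and 27.6 CPM, 3.19-fold higher (1.58 to 7.51).

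Among genes of PD-1 signalling and of the T cell receptor signal it acts on, 3 of 7 were higher in LTS T cell-like cells and none lower, beside 11.8% and 24.6% of all genes. They were Lck, the first kinase of that signal, at 1.83-fold (1.42 to 2.39), Sh2d1a at 1.70-fold (1.11 to 2.74) and Cd247, the zeta chain, at 1.63-fold (1.09 to 2.54). T cell markers as a whole were higher in the same cells, as given above. Of 11 exhaustion and activation factors 1 was higher and 3 were lower, and Ikzf2 (Helios) was 3.29-fold lower (2.55 to 4.24) and Nr4a2 2.60-fold lower (1.39 to 4.68). Of 13 genes from interferon gamma to PD-L1, none was higher and 4 were lower, among them Cxcl10 (3.42-fold, 1.82 to 6.26) and Socs1 (1.86-fold, 1.23 to 2.74). Ifng itself was at 72.0 and 48.3 CPM, with a ratio of 1.49 (0.857 to 2.80).

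Ligands of the same receptors that are not members went different ways by class. In T cell-like cells 0 of 8 measured were at least 1.5-fold higher in LTS and 4 were lower, with a median log2 ratio of -0.84. The MHC class II genes H2-Eb1, H2-Ab1 and Cd74 were 2.91-fold (2.12 to 3.95), 2.89-fold (2.15 to 3.86) and 2.55-fold lower (2.01 to 3.21) there. Free RNA was estimated at 54.0% (control) and 20.7% (LTS) of the UMIs of T cell-like cells. A T cell-like subcluster led by H2-Ab1, Cd74 and H2-Eb1 held 4 control and 10 LTS cells. The part of either in these ratios was not tested. In microglia-like cells 4 of 8 were higher and none lower, with a median of 0.56, beside 1.26% of all genes higher and 2.73% lower. These included H2-Aa and H2-Eb1, chains of the MHC class II molecules that LAG-3 binds, at 581 and 209 CPM (2.78-fold, 2.58 to 2.99) and at 644 and 285 CPM (2.26-fold, 2.12 to 2.40). In monocyte or macrophage-like cells 0 of 7 were past 1.5-fold in either direction, beside 2.55% of all genes higher and 9.4% lower. In endothelial cell-like cells 4 of 10 were higher and 1 lower, beside 2.41% of all genes higher and 3.26% lower. Cd74, the MHC class II chaperone, was 1.99-fold higher there (1.63 to 2.44) and Lgals3 1.85-fold lower (1.41 to 2.47). Free RNA was estimated at 40.1% (control) and 44.25% (LTS) of endothelial cell-like UMIs, and its part in these endothelial ratios was not tested. Vsir (VISTA), which acts both as ligand and as receptor, was at 295 and 184 CPM in microglia-like cells, 1.60-fold higher (1.48 to 1.75), and Icosl, the ligand of ICOS, at 36.4 and 18.8 CPM, 1.93-fold higher (1.50 to 2.51). Cluster 14, with Cd74 among its leading genes, held 225 LTS and 7 control microglia-like cells, and its part in these microglia-like ratios was not tested. In tumour-like cells Pvr, a TIGIT ligand, was at 28.0 and 26.9 CPM with a ratio of 1.04 (0.986 to 1.10). There 0 of 5 such ligands were past 1.5-fold, beside 0.0157% of all genes higher and 0.471% lower.

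The genes whose level was most like that of a member were named from Pearson's r of log2(CPM + 5) over 12 points, the sums of 7 classes in each library where they held at least 30 cells, among 9645 genes. Pdcd1 was nearest to Txk and Icos (r of 0.97 each), the first a T cell kinase and the second a co-stimulatory receptor, and Ctla4 to Sidt1 and Fam169b (0.996 each). Lag3 was nearest to Cst7 (0.99), a cathepsin inhibitor. Cd274 was nearest to Snx20 (0.99), Cd86 to Unc93b1 (0.99), which carries nucleic acid-sensing receptors, and Lgals9 to Orai1 (0.99), a calcium channel. These values describe sums that share libraries and classes, and Tigit, Cd80 and Pdcd1lg2, all under 20 CPM in every such sum, are left without neighbours.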

How the data were processed

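UMI counts per gene and barcode were deposited by the authors without normalization, and per the file headers come from Cell Ranger 4, on the mm10 build per the submitters' processing notes. The libraries were made with droplet 3' version 3 chemistry from cells taken at a Percoll gradient's interphase, per the labels' protocols, so shares of cells are not shares of the tissue. Both matrices were unfiltered (6794880 barcodes each). Of 9127 control and 5440 LTS barcodes with at least 1000 UMIs, 817 and 604 were left out for over 15% mitochondrially encoded UMIs, and 0 and 1 for fewer than 300 genes. The libraries held 165796852 (control) and 149413534 (LTS) UMIs.

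The libraries were clustered jointly, with no integration step (scanpy 1.11.5, leidenalg 0.10.2, 2000 variable genes, 30 principal components, 15 neighbours, resolution 1). Members, pathway lists, receptor segments and mitochondrial genes were left out of the clustering. A cluster was named from a marker list if at least 3 markers were found in 10% of its cells at 2 times the level elsewhere, and stayed unnamed where its 10 leading genes held more markers of another class, its UMIs were low with no own marker among them, or its median doublet score was over 0.2. Only clusters with Ptprc and summed Y-linked levels below 10% of those of immune clusters were scored for tumour markers, and for those alone. These clusters, the majority of cells, were compared with immune clusters instead, and the dendritic and T cell clusters were divided further at resolution 0.5. These steps were chosen after the data were seen. Trac, Trbc2, Ighm and Ighd, which are markers, and the list gene Hhla2 were not matched in the files. Scrublet marked 1 control cell (0.012%), which was taken not to have worked, and 85 LTS cells (1.76%). No cell was removed as a doublet.

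Counts were summed per class and library and scaled to CPM. Intervals are exact (Poisson for levels, Clopper-Pearson for shares, conditional for ratios) at 95% and treat UMIs as independent. A fold against a count of 0 used 3 counts over the class. Share of genes past 1.5-fold used genes of at least 20 CPM in either library and a pseudocount of 5 CPM. All members were measured in each class, but not every level is given. Of each list, the named genes come from the 3 with the largest absolute log2 ratio among those with at least 30 counts. The calling function was checked on simulated counts. Members and lists were chosen with earlier results of these data known, and the tumour markers come from those results. Alternatives are given in the closing section. Positions are from GENCODE M21 and promoters from RefSeq. Some list genes and likeness results are not reported here.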

Additional observations from a re-analysis of the deposited data

Results flagged for a closer look

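Havcr2 differed in opposite directions between classes, with every interval leaving out 1. The ratio of LTS over control was 5.65 (1.51 to 47.6) in T cell-like, 1.23 (1.08 to 1.41) in microglia-like and 1.32 (1.02 to 1.71) in monocyte or macrophage-like cells, but 0.676 (0.471 to 0.964) in G422 tumour-like cells. Cd86 did the same, at 1.19 (1.07 to 1.32) in microglia-like and 0.332 (0.212 to 0.505) in tumour-like cells. With 1 library per group the difference between classes was not tested. The tumour-like levels of both genes were at most 1.00 CPM, below those of low-UMI barcodes, which held Havcr2 at 6.24 CPM (control) and 9.98 CPM (LTS) and Cd86 at 13.9 and 16.2 CPM.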

How the results depend on the processing

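No paired analysis was possible because each group is 1 library, and no library could be left out. Of 287 alternative values of 26 log2 ratios, 258 lay within the counting interval of the reported value, 29 moved outside it and 266 kept their sign. All 156 alternatives of the 14 ratios whose interval leaves out 0 kept their direction. In T cell-like cells the log2 ratio of Pdcd1 moved from 0.24 to 3.22 in cells of at least 5000 UMIs (1 control UMI), to -0.54 with free RNA taken off and to -0.55 in cells with Cd3 and without C1q, and that of Ctla4 from -0.66 to -1.44 with free RNA taken off. In microglia-like cells Lag3 moved from 0.48 to 0.19 in cells of at least 5000 UMIs, 0.91 with cells weighed equally, 0.26 with free RNA taken off and 0.016 in cluster 4 alone. Havcr2 moved there from 0.30 to 0.081, 0.63 and 0.084 under the first 3 of these, and Cd86 from 0.25 to 0.039 with free RNA taken off. In monocyte or macrophage-like cells Cd274 moved from 0.49 to 1.70 in cells of at least 5000 UMIs. In tumour-like cells Cd274 moved from -0.20 to 0.21 with cells weighed equally and to 0.30 with free RNA taken off, and Lgals9 from -0.63 to -0.87 with cells weighed equally and to -0.37 with clusters 10 and 12 added. The causes were not tested. Cluster 4 alone, clusters 8, 10 and 12 added, cluster 3 left out and the removal of shared barcodes were chosen after seeing the data. In T cell-like cells 834 genes were 1.5-fold higher and 1738 lower, against 1945 and 3021 without a CPM minimum and 300 and 625 at a fold of 2. The interval of microglia-like Lag3 and Havcr2 included 0 in cells of at least 5000 UMIs and in cluster 4 alone. Removal of free RNA gave no value for Cd86 in tumour-like cells. Depth limits Tigit and Cd80 everywhere, and Havcr2 in control T cell-like cells rests on 2 UMIs.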

Other observations

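T cell-like cells were divided into subclusters without the checkpoint genes, after the data were seen, and their levels are a description. Subcluster 0, led by Ifitm1, Gzma and Itgae and with Havcr2 among its 10 leading genes, held 187 LTS cells and 2 control cells, and 53 of the 71 Havcr2 UMIs of LTS T cell-like cells (79.2 CPM, 59.3 to 104). Subcluster 3, led by Il17a, Rsad2 and Cd163l1 among others, held 37 LTS and 19 control cells. Its Pdcd1 level was 237 CPM in LTS (156 to 344) and 171 CPM in control (68.9 to 353), and its Ctla4 level 202 CPM in LTS (128 to 303) and 24.5 CPM in control (1 UMI), where 1 LTS cell held 30.4% of the Ctla4 UMIs. No Havcr2 UMI was found in its LTS cells (3 UMIs would be 26.3 CPM).

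Pdcd1 was also found in Ccr7 dendritic cell-like cells of LTS, at 105.5 CPM (57.7 to 177, 14 UMIs in 5 cells, with 50% in 1 cell), against 0 control UMIs (exact upper limit 45.1 CPM). It was at least 2.05-fold higher by the exact interval of the ratio, and 2.88-fold higher against a floor of 3 control counts. The same LTS cells held the T cell markers at 354 CPM, against 256.5 CPM in control.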
